A study of Mus musculus with 4 samples.

Results

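The genes described here encode the oxidative phosphorylation machinery of the mitochondrion, together with 5 nuclear genes that help to build it. They were taken by symbol from the feature list of 4 single-cell RNA-seq matrices: the protein-coding genes of the mitochondrial genome (mt-Nd, mt-Cytb, mt-Co and mt-Atp) and the nuclear genes whose symbols begin with Ndufa, Ndufb, Ndufc, Ndufs, Ndufv, Sdh, Uqcr, Cox4 to Cox8 or Atp5, leaving out the Ndufaf assembly factors. Of 31053 features, 102 matched and 98 had at least 50 UMIs (unique molecular identifiers, each counting 1 captured RNA molecule) over the 4 matrices. Of these 98 members, 13 were mitochondrial (mt-) and 85 were nuclear. The 4 that fell short were Cox7b2, Cox8b, Cox8c and a second feature row named Atp5o.

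The cells came from inguinal white adipose tissue of male ChAT-BAC-eGFP mice, which carry a bacterial artificial chromosome that drives green fluorescent protein from the choline acetyltransferase gene, so the sorted cells are those in which this transgene was on. All mice, 5 weeks old at the start, spent 3 weeks at thermoneutrality (30 °C). The 30 °C group then stayed there, and the 4 °C group had 4 h of cold after a period of acclimation at room temperature that the 30 °C group did not have. The stromal vascular fraction was digested out of the fat pad and live single eGFP+ cells were sorted for 10x 3′ sequencing, with 2 libraries per temperature and 4 pooled mice per library. With 2 libraries a group, each test of temperature rests on the spread between 2 pools of mice per group. Comparisons made within libraries, such as those of cell types, rest on the spread of the within-library difference over the 4 libraries.

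Oxidative phosphorylation passes electrons from NADH (complex I) and succinate (complex II) through complex III to oxygen at complex IV, and the ATP synthase, complex V, uses the resulting proton gradient to make ATP. Complex II is encoded wholly in the nucleus, whereas the other complexes join nuclear subunits to subunits made inside the mitochondrion from mitochondrial DNA. Activated and dividing lymphocytes are known to build up mitochondria, and macrophages are known to shift between glycolysis and respiration with their state.

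By complex, the nuclear members were 36 genes of complex I, 4 subunits and 4 assembly factors of complex II (Sdhaf1 to Sdhaf4), 8 genes of complex III, 16 of complex IV, 16 of complex V and the supercomplex factor Cox7a2l. The mt- members were 7 genes of complex I, mt-Cytb of complex III, 3 genes of complex IV and 2 of complex V. The mt- genes lie so close together that 4 pairs overlap, mt-Atp8 with mt-Atp6 by 43 bases, mt-Nd5 with mt-Nd6 by 14, mt-Nd4l with mt-Nd4 by 7 and mt-Atp6 with mt-Co3 by 1. The longest of these overlaps is shown because it places mt-Atp8 and mt-Atp6 on a shared transcript whose reads cannot always be assigned to 1 of the pair, so mt-Atp8 is read with that limit throughout. It covers bases 7927 to 7969 of the mitochondrial chromosome (mm10, + strand, from the GENCODE transcripts), and the capitals mark the start codon of mt-Atp6.
mt-Atp8 and mt-Atp6 overlap: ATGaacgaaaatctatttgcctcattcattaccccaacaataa

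The matrices held 6272 to 6883 cells and 76058112 to 84468931 UMIs per library. Cells with 200 to 5000 genes and under 7.5% of their UMIs from mt- genes were kept, which left 5191 and 5388 for the 30 °C libraries and 5329 and 5345 for the 4 °C libraries. Cell types were assigned by markers that included no member, and 86.2% to 89.5% of kept cells received a type. The gated macrophages carried all 9 macrophage markers at a summed 22266 to 23699 CPM, against 14.2 to 25.3 in B cells and 11.1 to 21.8 in αβT cells. Gated group 2 innate lymphoid cells carried T cell markers at 494 and 459 CPM at 30 °C and 644 and 694 at 4 °C. In the same cells αβT cell markers stood at 951 and 857, then 1238 and 1133, against 4165 to 4644 in αβT cells. Adipocyte markers were also counted in the macrophages and are given with the gene they touch. Any pair of libraries shared 10 to 18 cell barcodes, which were left in. No doublet caller was run. In most gates a cell with enough markers of a different type was left without a type. Plasma cell markers, however, set no limit in the gates of macrophages, mature dendritic cells and stromal cells. They also set none in the gate of group 2 innate lymphoid cells, though the plasma cell gate, applied after it, took some such cells. These markers summed to 1191 CPM in the macrophages of replicate 2 at 30 °C, against 299 to 317 in the other macrophage libraries.

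Levels are given as counts per 1000000 (CPM), that is, the UMIs of a gene scaled by all UMIs of that cell type in that library. Each captured molecule is counted by its 3′ end, so these levels were not divided by gene length.

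B cells gave the highest mt- share of UMIs, 5.67% and 5.27% in the 30 °C libraries and 5.11% and 5.12% in the 4 °C libraries. αβT cells gave 4.08% and 4.05%, then 3.65% and 3.83%, and macrophages 3.38% and 3.48%, then 3.27% and 3.53%. The ranges of these 3 types did not overlap.

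The nuclear members ran in a different order. Their summed level, in CPM of the UMIs that were not mt-, was 25055 to 26427 in αβT cells, 18129 to 19783 in B cells and 16255 to 16455 in macrophages. γδT cells lay near αβT cells at 24694 to 28180, group 2 innate lymphoid cells (ILC2) at 22761 to 24616 and mature dendritic cells (DCs) at 20283 to 22088. Plasma cells, which spend much of their RNA on immunoglobulin, had the lowest level at 8765 to 9477, next to stromal cells at 14630 to 17098.

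The ratio of mt- UMIs to nuclear member UMIs does not depend on how libraries are scaled. It was 2.72 to 3.31 in B cells, 2.05 to 2.24 in macrophages, 1.43 to 1.64 in αβT cells and 1.27 to 1.46 in mature DCs. Plasma cells, at 2.00 to 2.45, lay close to macrophages in spite of their low nuclear level, and ILC2 at 1.81 to 2.11 overlapped both. γδT cells (1.44 to 1.75), αβT cells, stromal cells (1.38 to 1.58) and DCs formed a lower set in which each overlapped its neighbour. B cells stood clear of all other types, and ILC2 stood clear of γδT cells.

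**Figure D1:**
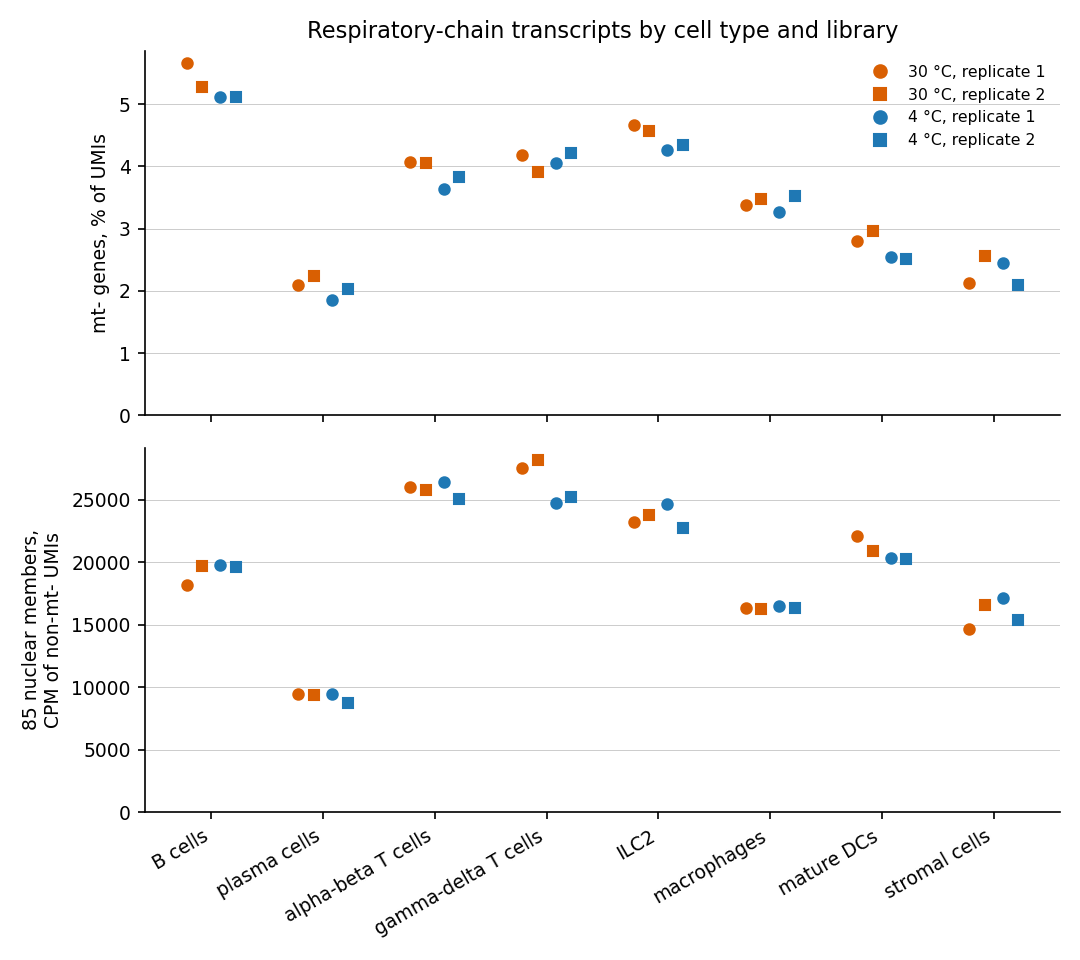
Summed members by cell type and library, with the 13 mt- genes as a percent of all UMIs (top) and the 85 nuclear members in CPM of non-mt UMIs (bottom). Orange is 30 °C and blue is 4 °C, circles are replicate 1 and squares replicate 2. B cells sit highest in the top panel at 5.11% to 5.67%, whereas T cells sit highest in the bottom panel and plasma cells lowest.

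The 7.5% limit on mt- UMIs removed unequal shares of the cell types and of the libraries. Of B cells it removed 24.1% and 20.4% at 30 °C and 12.4% and 12.9% at 4 °C. Of αβT cells it removed 12.3% and 8.77%, then 4.55% and 8.41%, and of macrophages 7.60% and 9.90%, then 6.69% and 8.47%. The 30 °C libraries lost more B cells and αβT cells than the 4 °C libraries, without overlap, while the macrophage values overlapped.

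Most of the B cells over the limit were only a little over it. Between 66.2% and 79.5% of them in each library had under 10% mt- UMIs, and their median depth was 7242 to 8039 UMIs against 7933 to 8415 in kept B cells. The αβT cells over the limit were shallow, with medians of 2548 to 3236 UMIs against 5751 to 6686 in kept cells, and so were the macrophages (2007 to 3604 against 8189 to 9805). ILC2 lost 24.7% and 10.8% at 30 °C and 5.95% and 24.6% at 4 °C, values that overlapped between the temperatures.

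Without the limit, the mt- share of B cells was 6.44% and 5.94% at 30 °C and 5.54% and 5.60% at 4 °C, 10.0% lower on average at 4 °C against 6.52% lower with the limit. In αβT cells the average difference was 12.3% without the limit and 8.08% with it. In macrophages it was 3.21% and 0.875%, and the libraries of the 2 temperatures overlapped either way. Because the limit acts on the same genes it then leaves to be compared, both values are given.

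Nuclear members were lower in the cells that the limit removes. These cells were set against the kept cells of the same type and library, with mt- genes taken out of both sides. In B cells 70 of 83 tested nuclear members were lower and none higher (edgeR quasi-likelihood test, Benjamini-Hochberg adjusted over all genes), where 29.9% of all 11526 genes tested were called, 13.5% higher and 16.4% lower. The median member was -0.30 on the log2 scale against 0.02 over all genes. In αβT cells 69 of 82 were lower and none higher, with a median of -0.88 against 0.03, where 31.7% of genes were called, 13% higher and 18.7% lower. In macrophages 30 of 78 were lower and none higher, with a median of -0.83 against -0.15, where 4.05% were called, 0.403% higher and 3.64% lower.

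Scaling bears on these sizes, since trimmed-mean (TMM) normalisation moved the αβT values by -0.52, the macrophage values by -0.40 and the B cell values by -0.07. With library totals in its place, 61 members were lower in B cells, 48 lower and 5 higher in αβT cells, and 6 lower in macrophages, and the medians were -0.23, -0.36 and -0.44.

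In B cells every complex took part, with 31 of 36 genes of complex I, all 8 of complex III, 13 of 14 tested genes of complex IV and 15 of 16 of complex V lower, and 2 of the 4 subunits of complex II. The rare isoform genes Cox7a1 and Cox4i2 apart, which stood at 0 to 0.947 CPM in these cells, the lowest was Cox5a. Cox5a, which encodes a nuclear subunit of cytochrome c oxidase, fell by 0.54 (SE 0.05, adjusted p = 2.8e-07), from 229, 257, 269 and 265 CPM in kept cells to 168, 165, 197 and 211 in cells over the limit. Every library showed this order. Ndufab1 (-0.53), Ndufc1 (-0.52), Atp5k (-0.51), Uqcrq (-0.49) and Sdhb (-0.48) lay close to it.

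In αβT cells the lower members included Atp5e, the epsilon subunit of the ATP synthase, which fell by 1.44 (SE 0.11, adjusted p = 2.3e-38). It stood at 1137 to 1201 CPM in kept cells and 524 to 714 over the limit. Uqcrfs1, the Rieske iron-sulphur protein of complex III, fell by 1.40, and Uqcrh and Cox7a2 by 1.24 each. In macrophages Cox8a had the largest fall at 2.08 (SE 0.27, adjusted p = 5.5e-12), and Uqcr10 fell by 1.81, but only 13 to 32 macrophages per library were over the limit.

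The B cells over the limit also held fewer dividing cells, 4.14% to 6.54% against 8.51% to 15.4% of kept B cells, and all 10 cell cycle genes were lower in them (median -2.23). With dividing cells left out, 60 nuclear members were lower in B cells (median -0.20), 70 in αβT cells (median -0.75) and 30 in macrophages (median -0.88), with none higher. The part that depth plays in the αβT and macrophage values was not tested.

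**Figure D2:**
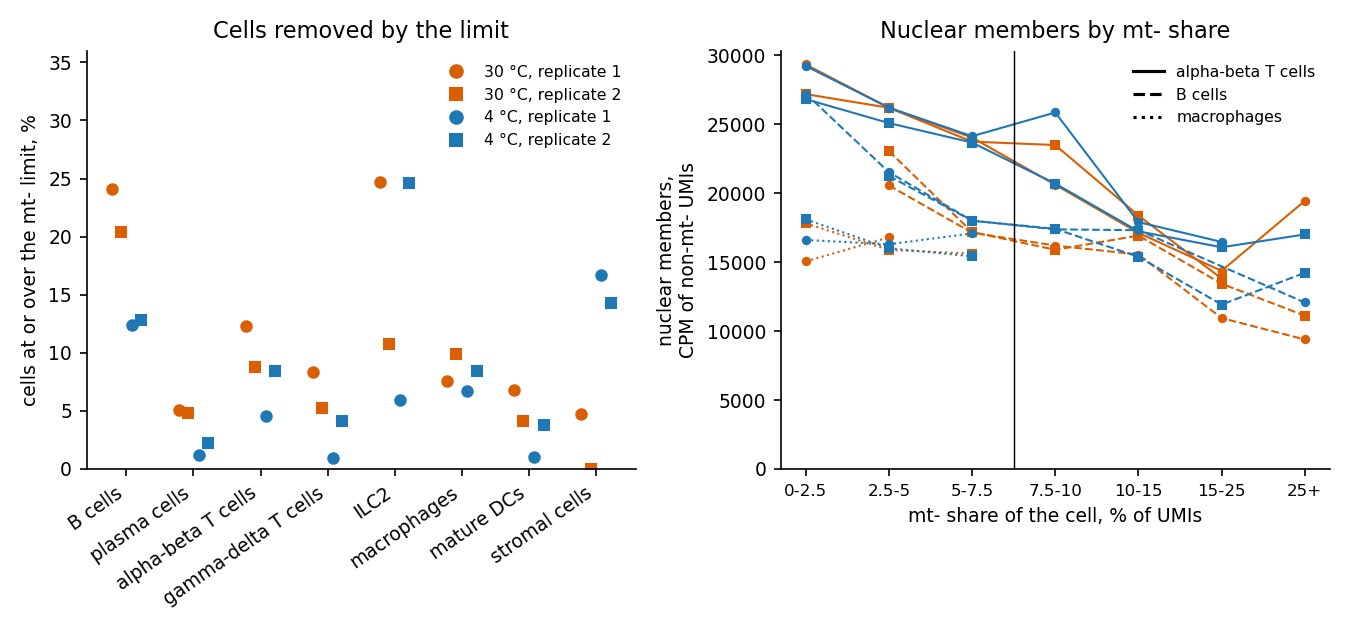
Left, percent of cells of each type and library at or over 7.5% mt- UMIs. Right, the summed nuclear members in CPM of non-mt UMIs, in bins of mt- share, for bins of at least 20 cells. Solid lines are αβT cells, dashed lines B cells and dotted lines macrophages, in orange for 30 °C and blue for 4 °C, and the upright line marks 7.5%. In B cells the nuclear members stand at 20564 to 23056 with 2.5% to 5% mt- UMIs and at 15897 to 17416 with 7.5% to 10%. The macrophage lines show no common direction below the limit and end there, since macrophage bins over it held only 2 to 12 cells.

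The comparison of 4 °C with 30 °C covers only the sorted eGFP+ cells, and the groups differ in the acclimation step as well as in the cold. Of the 13 mt- members 7 passed in αβT cells, and none in B cells or macrophages. Of the nuclear members 1 of 83 passed in B cells, 1 of 82 in αβT cells and 4 of 80 in macrophages, with medians of 0.00, -0.06 and -0.04 on the log2 scale. Of all genes tested, 1.22% passed in B cells (0.413% higher, 0.809% lower), 5.04% in αβT cells (2.22% higher, 2.82% lower) and 16.1% in macrophages (8.25% higher, 7.84% lower). The cell types all come from the same 4 libraries, so agreement between them is not independent.

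In αβT cells 7 of 13 mt- members were lower and none higher at 4 °C, against 2.82% of 11850 genes tested that were lower. mt-Atp6, the proton channel subunit of the ATP synthase, stood at 8794 and 8691 CPM at 30 °C and 7633 and 8021 at 4 °C and fell by 0.22 (SE 0.03, adjusted p = 0.0071). mt-Co1, the catalytic subunit of cytochrome c oxidase, stood at 7375 and 7466, then 6467 and 6960, and fell by 0.21 (SE 0.04, adjusted p = 0.016). Neither gene overlapped between the temperatures. Kept αβT cells were also deeper at 4 °C, with medians of 6686 and 6575 UMIs against 6236 and 5751 at 30 °C, and across cells a higher mt- share went with lower depth in each library (Spearman -0.24 to -0.31 over 1544 to 1844 cells, a description). The part that depth plays in the mt- values was not tested.

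The other subunits of the cytochrome c oxidase core fell by 0.19 (mt-Co2) and 0.17 (mt-Co3). Of the complex I genes, mt-Nd1 fell by 0.23 and mt-Nd5 by 0.25 (adjusted p = 0.023 and 0.0498), and mt-Atp8 fell by 0.28. The members that did not pass were mt-Nd2 (-0.10), mt-Nd3 (-0.17), mt-Nd4 (-0.10), mt-Nd4l (-0.17), mt-Nd6 (-0.12) and mt-Cytb (-0.12). With library totals in place of TMM 3 mt- members were lower, and without either of the 30 °C libraries none passed. The 7 calls were kept in 6 (mt-Co3) to 11 (mt-Nd1 and mt-Atp6) of 13 alternative settings. Without the mt- limit 6 passed, with a median of -0.25 against -0.17.

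In B cells no mt- member passed the test, although all 13 differences were negative, from -0.29 to -0.13, and 8 had an unadjusted p under 0.05. Only 1.22% of 11866 genes passed in B cells. The 30 °C libraries differed in their share of dividing cells, 8.51% in replicate 1 and 15.4% in replicate 2, with 10.8% and 13% at 4 °C, and dividing B cells had a lower mt- share (4.13% to 4.88%) than other B cells (5.38% to 5.82%). Among B cells that were not dividing, the share of genes called was 13.4% of 11351 (6.59% higher, 6.78% lower), and 12 of 13 mt- members were lower, with none higher and a median of -0.22. This comparison was added after the values were seen.

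In those non-dividing B cells mt-Atp6 stood at 12233 and 11820 CPM at 30 °C and 11031 and 10949 at 4 °C, a fall of 0.24 (SE 0.03, adjusted p = 0.0012). mt-Co1 stood at 10185 and 10338, then 9426 and 9519, a fall of 0.22 (SE 0.03, adjusted p = 0.0014). mt-Nd5 had the largest fall, 0.30 (SE 0.05, adjusted p = 0.0029), and mt-Cytb the smallest that passed, 0.14. The member that did not pass, mt-Nd6, was the least abundant at 23.3 to 26.8. Among αβT cells that were not dividing 6 of 13 were lower and none higher, where 6.52% of genes were called (3.03% higher, 3.5% lower).

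**Figure D3:**
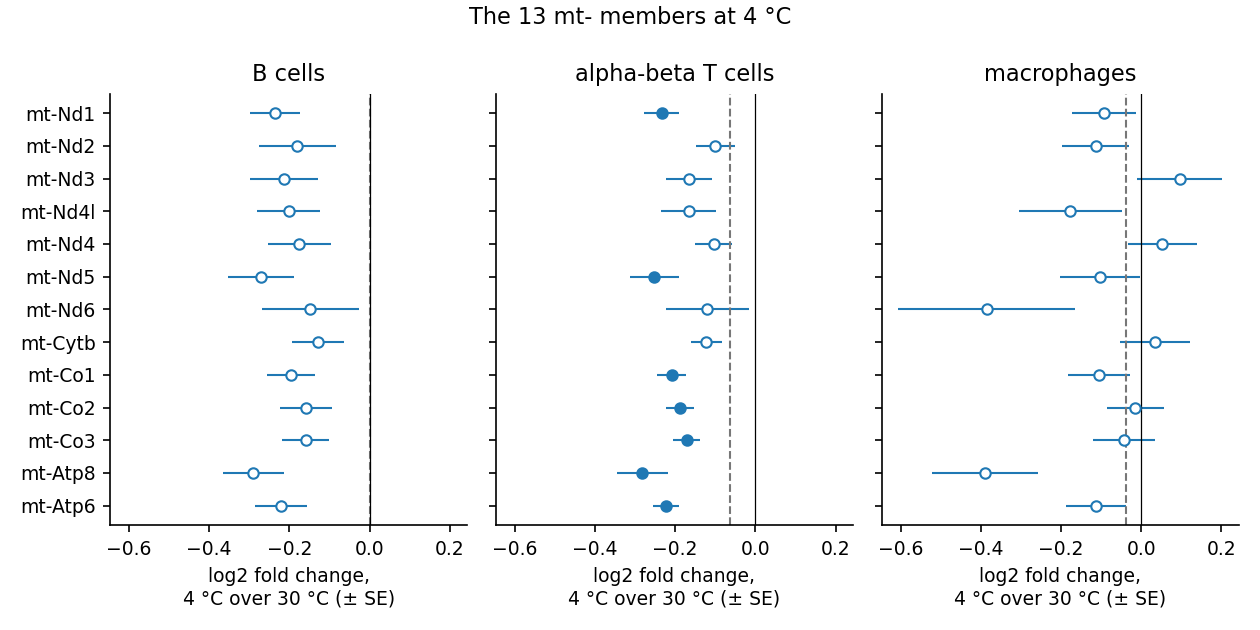
Log2 fold change of each mt- member at 4 °C against 30 °C, with its standard error, in B cells, αβT cells and macrophages. Filled points have an adjusted p under 0.05, and the dashed line is the median of the nuclear members in that cell type. In αβT cells 7 of 13 points are filled, all below 0, while in B cells and macrophages none is.

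In macrophages none of the 13 mt- members passed and 1 had an unadjusted p under 0.05, though 16.1% of 9281 genes passed in these cells. mt-Co1 stood at 7608 and 7726 CPM at 30 °C and 6907 and 7811 at 4 °C, and mt-Cytb at 2175 and 2281, then 2253 and 2467. The temperatures overlapped for both. The 1 gene with an unadjusted p under 0.05 was mt-Atp8, at 89.1 and 90.2, then 65.8 and 78.8 (-0.39, adjusted p = 0.078). A test of the difference in the 4 °C effect between macrophages and B cells called no mt- member, and 0 had an unadjusted p under 0.05. Against αβT cells it also called none, and 2 had an unadjusted p under 0.05, so the effect in macrophages was not shown to differ from that in lymphocytes.

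In the other cell types few mt- members passed. In ILC2, where 3.34% of genes were called (1.48% higher, 1.86% lower), mt-Co1 fell by 0.20 (7781 and 7869, then 7044 and 7155, adjusted p = 0.041) and mt-Nd1 by 0.25 (adjusted p = 0.044). Of 12 alternative settings the first call was kept in 1 and the second in 2, and leaving out any 1 library ended both, except that mt-Nd1 passed without replicate 2 at 30 °C. In mature DCs, where 1.94% of genes were called (1.27% higher, 0.672% lower), none passed, but 10 had an unadjusted p under 0.05 and the median was -0.29. In γδT cells (2.79% called, 1.17% higher and 1.62% lower), plasma cells (0.668%, 0.109% and 0.559%) and stromal cells (0.613%, 0.16% and 0.453%) none passed, and 1, 0 and 0 had an unadjusted p under 0.05. The γδT comparison rested on 197, 218, 104 and 46 cells and the stromal comparison on 20 to 30 cells per library.

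Sdhaf1, an assembly factor that helps to load iron-sulphur clusters into complex II, was lower at 4 °C in B cells, αβT cells, ILC2 and mature DCs. In αβT cells it stood at 168 and 154 CPM at 30 °C and 66.7 and 71.3 at 4 °C, a fall of 1.29 on the log2 scale (SE 0.07, adjusted p = 2.6e-05). In B cells it stood at 114 and 102, then 51.2 and 45.1, a fall of 1.25 (SE 0.11, adjusted p = 0.0091). Both groups were far apart in both cell types.

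In ILC2 Sdhaf1 stood at 151 and 135, then 50.9 and 60.6, a fall of 1.44 (SE 0.17, adjusted p = 2.5e-05). Mature DCs had the highest level of any type, 367 and 312 at 30 °C and 220 and 237 at 4 °C, a fall of 0.65 (SE 0.13, adjusted p = 0.032). Replicate 2 at 30 °C stood apart among the DC libraries, with plasma cell markers at 4920 CPM against 115 to 120 in the other 3, and without it the fall was 0.74 (adjusted p = 0.0022). The DC call was lost without replicate 1 of either temperature (adjusted p = 0.16 and 0.11), and the B cell call without either 4 °C library (adjusted p = 0.12 and 0.18), though the falls in those settings stayed at 0.53 and 0.55 in DCs and lay between 1.15 and 1.37 in B cells under all settings. Non-dividing B cells gave 118 and 117, then 53.3 and 47.5, a fall of 1.33 (adjusted p = 2.4e-06).

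Macrophages, γδT cells and plasma cells had little Sdhaf1 and no call. In macrophages it stood at 33.2 and 28.2 CPM at 30 °C and 20.8 and 28.9 at 4 °C (-0.42, adjusted p = 0.25). The 4 °C effect in macrophages was 0.90 above that in αβT cells (SE 0.21, adjusted p = 0.0067, where 6.99% of genes differed, 3.5% higher and 3.49% lower), an adjusted p that was 0.061 without replicate 2 at 4 °C. Against B cells the same difference was 0.85 and did not pass (adjusted p = 0.083). In γδT cells the levels were 48.7 and 35.6, then 37.5 and 32.8, and in plasma cells 27.9 and 29.7, then 22.8 and 22.1.

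No other gene of complex II passed in any cell type tested. The assembly factors Sdhaf2, Sdhaf3 and Sdhaf4 differed by 0.22, -0.18 and 0.15 in B cells and by 0.21, 0.02 and 0.17 in αβT cells. For Sdha, which oxidises succinate, Sdhb, which carries the iron-sulphur clusters, and the membrane anchors Sdhc and Sdhd the differences in αβT cells ran from -0.19 (Sdhd) to -0.05 (Sdhc).

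Sdhaf1 lies at chr7:30321406-30323895 on the minus strand (mm10), and the gene E130208F15Rik overlaps it on the other strand. That gene had 662 UMIs in all against 24320 for Sdhaf1.

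**Figure D4:**
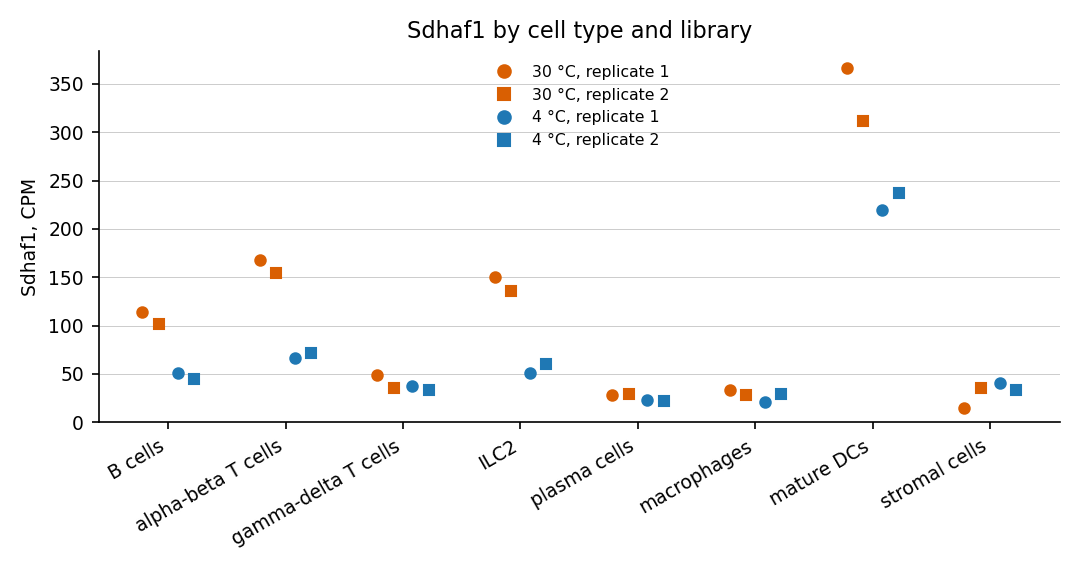
Sdhaf1 in CPM by cell type and library, orange for 30 °C and blue for 4 °C. The 4 °C libraries lie below the 30 °C libraries without overlap in B cells, αβT cells, ILC2 and mature DCs, and the levels in macrophages, γδT cells and plasma cells stay under 50. In plasma cells the 4 °C libraries also lie below without overlap, with no call.

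In macrophages 1 nuclear member was higher and 3 were lower at 4 °C, of 80 tested, where 16.1% of all genes passed (8.25% higher, 7.84% lower). Uqcrb, a matrix-facing subunit of complex III, stood at 272 and 266 CPM at 30 °C and 203 in both 4 °C libraries, a fall of 0.45 (SE 0.10, adjusted p = 0.011). Ndufv2, an iron-sulphur subunit of the NADH-binding arm of complex I, stood at 116 and 108, then 82.2 and 78.2, a fall of 0.52 (SE 0.11, adjusted p = 0.011). Atp5b, the catalytic beta subunit of the ATP synthase, stood at 300 and 303, then 249 and 245, a fall of 0.33 (SE 0.10, adjusted p = 0.044). The libraries did not overlap for any of these genes, but Atp5b kept its call in only 5 of 15 alternative settings, Ndufv2 in 13 and Uqcrb in all 15. Atp5b lost it without any 1 of the 4 libraries (adjusted p = 0.071 to 0.15) and Ndufv2 without replicate 1 at 30 °C (adjusted p = 0.052).

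Dividing cells made up 17.1% and 15.4% of macrophages at 30 °C and 9.64% and 11.7% at 4 °C, without overlap. That was 27 and 28 cells, then 43 and 19. The paper, which scored cell cycle phase instead, reports a higher number of proliferating macrophages in the cold. Kept macrophages had median depths of 9805 and 9450 UMIs, then 8189 and 9230, and the part of depth in the dividing share was not tested. Among macrophages that were not dividing, a comparison added after the values were seen, 1 of 79 tested nuclear members was higher and 2 lower, where 16% of 8655 genes were called (7.87% higher, 8.17% lower). Uqcrb fell by 0.38 (adjusted p = 0.036) and Ndufv2 by 0.58 (adjusted p = 0.011) in these cells, Atp5b differed by -0.28 (adjusted p = 0.11) and Cox7a1 was too rare to be tested. The higher gene there was Ndufb3, a subunit of complex I (0.42, adjusted p = 0.036). None of the 13 mt- members passed, and 0 had an unadjusted p under 0.05.

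Uqcrb did not pass in B cells or αβT cells. In B cells it stood at 157 and 176, then 203 and 199 (0.19, adjusted p = 0.29), and in αβT cells at 285 and 284, then 318 and 308 (0.07, adjusted p = 0.52). The difference between macrophages and B cells was -0.61 (SE 0.14, adjusted p = 0.036, where 4.01% of genes differed, 1.96% higher and 2.05% lower), and between macrophages and αβT cells -0.51 (SE 0.13, adjusted p = 0.017). Both were lost without either 4 °C library.

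The member that was higher in macrophages was Cox7a1, the isoform of a cytochrome c oxidase subunit known from heart, skeletal muscle and brown fat. It had 1 and 5 UMIs at 30 °C and 25 and 15 at 4 °C, or 0.614 and 2.77, then 6.42 and 9.85 CPM, a difference of 2.04 (SE 0.60, adjusted p = 0.047). The call was lost without replicate 1 at 30 °C or without either 4 °C library, where the adjusted p was 0.26, 0.080 and 0.23, and with macrophages held to those with an Mrc1 UMI (0.052). It was kept in the other 9 of 13 settings with an adjusted p. The 9 adipocyte markers summed to 787 and 771 CPM in these macrophages at 30 °C and 1725 and 1771 at 4 °C. Most of that was Lpl, which macrophages can also express, with 831 and 948 UMIs, then 6235 and 2518. Fabp4, the next most abundant, had 411 and 413 UMIs, then 446 and 165, and Cidec had 25 and 18, then 7 and 3. The macrophages summed numbered 158 and 182, then 446 and 162, so the markers did not all rise together. Adipoq had 2 and 3 UMIs, then 11 and 0, and Ucp1 had 0 in every library. Whether these transcripts belong to the macrophages was not tested. In B cells Cox7a1 stood at 0.949 to 1.87 and in αβT cells at 1.87 to 2.60, with no call.

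The remaining isoform genes were too rare or did not pass. Cox4i2 and Ndufa4l2, known as hypoxia-induced isoforms, had 3 and 2 UMIs over the 4 macrophage libraries, all from replicate 2 at 30 °C. Cox6a2, a muscle isoform, had 7 and 1 UMIs, then 11 and 3, and was not tested. The genes for the c-ring of the ATP synthase, Atp5g1, Atp5g2 and Atp5g3, differed by -0.16, -0.11 and 0.08 in macrophages and by 0.04, -0.18 and 0.01 in B cells, and none passed.

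In γδT cells the nuclear members had a median of -0.27 against 0.00 over all genes, and 31 of 80 had an unadjusted p under 0.05, but only Ndufa12, a complex I subunit, passed (161 and 159 CPM at 30 °C, 104 and 108 at 4 °C, a fall of 0.69, adjusted p = 0.026). This call was kept in 7 of 13 alternative settings and lost without either 30 °C library (adjusted p = 0.23 and 0.35) or replicate 1 at 4 °C (adjusted p = 0.055). Without the upper limit on genes per cell the difference was 0.05 (adjusted p = 0.90). The summed level of the nuclear members was 27553 and 28180 at 30 °C and 24694 and 25173 at 4 °C, or 10.5% lower on average, against 3.33% lower with overlap when the upper limit was lifted. The 10 cell cycle genes had a median of -0.80 in the same comparison, none of which passed, and the part of dividing cells in it was not tested. The gated γδT cells also differed in their markers. Summed αβT cell markers stood at 1375 and 1577 CPM at 30 °C and 2114 and 2116 at 4 °C, and summed γδT cell markers at 4489 and 4878, then 4005 and 3578. The part of this make-up in the member values was not tested.

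Dividing T cells, where 8.39% of genes were called (3.89% higher, 4.5% lower), had 3 nuclear and 6 mt- members lower at 4 °C and none higher. The nuclear genes were Sdhaf1 (88.4 and 74.4, then 44.3 and 48.7, a fall of 0.90), the cytochrome c oxidase subunit Cox5b (674 and 681, then 601 and 575, a fall of 0.29) and the complex III core protein Uqcrc1 (a fall of 0.31). Of 13 alternative settings, Sdhaf1 kept its call in all, Cox5b in 7 (adjusted p up to 0.13) and Uqcrc1 in 6 (up to 0.27), and without either 30 °C library, or without replicate 2 at 4 °C, neither Cox5b nor Uqcrc1 passed. Dividing B cells, where 0.14% of genes were called (0.03% higher, 0.11% lower), had no member past the test, and 3 nuclear and 3 mt- members had an unadjusted p under 0.05. DESeq2 called 1 there.

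Among non-dividing B cells 9 of 82 tested nuclear members were higher and 3 lower, near the shares over all genes (6.59% higher, 6.78% lower). Ndufb2, a membrane-arm subunit of complex I, stood at 65.2 and 59.6 CPM at 30 °C and 93.9 and 89.0 at 4 °C, a rise of 0.44 (SE 0.07, adjusted p = 0.0019). Ndufc1 stood at 83.1 and 80.4, then 116 and 109, a rise of 0.36 (SE 0.06, adjusted p = 0.0041). The other higher genes were Cox6a1 (0.23), Uqcrb (0.23), Ndufb6 (0.21), Atp5j (0.20), Ndufa13 (0.19), Ndufab1 (0.19) and Atp5j2 (0.18), and Atp5g2 (-0.18) and Ndufs3 (-0.20) were lower with Sdhaf1.

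Ndufc1 and Ndufb2 were also higher in non-dividing αβT cells, by 0.31 and 0.29 (adjusted p = 0.011 and 0.035). In non-dividing B cells the summed nuclear members stood at 17149 and 17040 CPM at 30 °C and 18254 and 18140 at 4 °C, and the mt- to nuclear ratio at 3.60 and 3.53, then 3.12 and 3.13, without overlap. Median depth in these cells was 7651 and 7211 UMIs, then 7935 and 7885. Across all kept B cells, dividing ones included, a higher nuclear share went with higher depth in each library (Spearman 0.32 to 0.46, a description). The part that depth plays in these values was not tested.

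Cell types were also compared with each other. Each comparison was tested on the sums of both types within the same 4 libraries, and since TMM moved all values of a comparison together, its shift is given with each. Macrophages against B cells had 3 nuclear members higher and 68 lower and all 13 mt- members lower, where 70.8% of 12449 genes were called (34.4% higher, 36.4% lower) and TMM moved all values by -0.48. With library totals 14 nuclear members were higher and 34 lower, and 9 mt- members were lower and none higher.

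The mt- differences were unequal between genes. mt-Cytb, the cytochrome b of complex III, stood at 2175 to 2467 CPM in macrophages and 5144 to 5528 in B cells (-1.67, SE 0.08, adjusted p = 5.4e-07). mt-Atp6 stood at 5290 to 5854 and 10389 to 11889 (-1.43, SE 0.07). mt-Nd1 stood at 2386 to 2538 and 2501 to 2858, which overlap, and its fitted difference of -0.56 is close to the shift.

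The 3 nuclear members that were higher in macrophages with TMM were Sdhc, Sdha and Cox6a2. Sdhc, the cytochrome b anchor of complex II, stood at 93.4, 84.1, 98.9 and 113 CPM in macrophages and 32.1, 32.6, 36.6 and 37.4 in B cells (1.01, SE 0.10, adjusted p = 3.4e-05). Sdha stood at 120 to 144 and 76.3 to 82.9 (0.27, adjusted p = 0.037). Sdhb went the other way (-0.69) and Sdhd differed by 0.01. Cox6a2 stood at 0.553 to 4.30 in macrophages and 0 to 0.0399 in B cells. At the other end, past the rare Cox4i2, lay Sdhaf1 (-1.89), the complex I iron-sulphur subunit Ndufs8 (-1.57), Sdhaf2 (-1.38), Sdhaf3 (-1.37), Ndufb11 (-1.29), Atp5g2 (-1.21) and Ndufa11 (-1.16).

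Macrophages against αβT cells gave 3 nuclear members higher and 69 lower, where 72.1% of 12525 genes were called (35.1% higher, 37.1% lower) and the shift was -0.11. Sdhc (0.79, SE 0.10) and Sdha (0.33, SE 0.09) were again higher, as was the rare Cox6a2, and Sdhb was lower (-1.06). The lower genes were led by Sdhaf1 (-2.06) and Ndufs4, a complex I subunit, which stood at 59.4 to 74.7 in macrophages and 156 to 157 in αβT cells (-1.38, SE 0.10, adjusted p = 2.4e-06). Ndufa11, Ndufa13, Ndufv3, Atp5j2, Cox7b and Ndufa1 lay between -1.33 and -1.16.

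Here the mt- members split. mt-Nd3 (0.26), mt-Nd1 (0.20) and mt-Nd2 (0.16) were higher in macrophages, and mt-Cytb (-0.88), mt-Atp6 (-0.66), mt-Nd6 (-0.39), mt-Co3 (-0.38) and mt-Co2 (-0.31) were lower. mt-Nd4, mt-Nd4l, mt-Nd5, mt-Co1 and mt-Atp8 differed by -0.06 to 0.09 and did not pass. Without the 7.5% limit the nuclear counts were again 3 higher and 69 lower, but 1 mt- member was higher and 5 lower. The calls of mt-Cytb, mt-Atp6, mt-Co2 and mt-Co3 were kept in all 12 alternative settings, and those of mt-Nd1, mt-Nd2, mt-Nd3 and mt-Nd6 in 6 to 8.

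αβT cells against B cells had all 13 mt- members lower, where 69.4% of 12851 genes were called (34.8% higher, 34.6% lower) and the shift was -0.36, from mt-Nd5 at 279 to 330 and 484 to 590 CPM (-1.16, SE 0.05) to mt-Nd6 (-0.29), which was 0.07 with library totals. Of the nuclear members 35 were higher and 20 lower, and with library totals 72 and 5. The gene with the largest rise was Ndufa1, at 302 to 324 in αβT cells and 127 to 153 in B cells (0.77, SE 0.06, adjusted p = 1e-05). Atp5j2 and Ndufv3 were each 0.65 higher and Ndufb7 0.59.

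Plasma cells against B cells cannot be read without the scaling. The shift was 1.30, and 41 nuclear members were higher and 7 lower with it but 3 members of either genome higher and 90 lower with library totals, where 47% of 11451 genes were called with TMM (23.5% higher, 23.5% lower). With immunoglobulin genes left out and library totals, 53 nuclear members were higher and 5 lower. Ndufa1 kept its direction under both, at 305, 310, 292 and 250 CPM in plasma cells and 127, 145, 150 and 153 in B cells. Cox6a2, at 6 to 18.6 in plasma cells and 0 to 0.0399 in B cells, was also higher on both.

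As shares of UMIs, dividing cells differed from the other cells of their lineage in opposite ways for the 2 genomes. Dividing cells were those with 3 or more of 10 cell cycle genes. In B cells 63 of 83 nuclear members were higher and 5 lower in dividing cells and all 13 mt- members were lower, where 58.4% of 11424 genes were called (27.9% higher, 30.6% lower) and the shift was -0.14. In T cells of all kinds 72 of 82 nuclear members were higher and 4 lower, and 9 mt- members were lower and none higher, where 60% of 11570 genes were called (30.6% higher, 29.4% lower) and the shift was 0.19. The mt- to nuclear ratio was 1.71 to 2.20 in dividing and 3.12 to 3.60 in other B cells, and 1.12 to 1.30 and 1.71 to 2.04 in T cells, with no overlap. With library totals 73 nuclear members were higher and 2 lower in B cells, with 12 mt- members lower, and 64 were higher and 8 lower in T cells, with all 13 mt- members lower.

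Dividing cells were also deeper, with a median of 17071 to 19153 UMIs against 7211 to 7935 in B cells, and 16141 to 17601 against 5496 to 6185 in T cells. The levels compared are shares of captured UMIs, so a lower mt- share is not a lower mt- count per cell. The part that depth plays in these differences was not tested.

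Each of complexes I, III, IV and V took part. In T cells 33 of 36 genes of complex I, 7 of 8 of complex III, 13 of 13 of complex IV, 15 of 16 of complex V and 3 of 4 of complex II were higher. Cox5a stood at 529 to 641 CPM in dividing and 278 to 338 in other T cells (1.17, SE 0.08, adjusted p = 1.5e-07). Sdhd, Cox5b and Cox6a1 were each 0.97 higher, and Atp5o and Atp5b 0.93 and 0.88. In B cells the ATP synthase c-subunit gene Atp5g3 stood at 289 to 343 and 149 to 171 (0.87, SE 0.06, adjusted p = 5.7e-09), and Atp5j, Ndufc2, Sdhb and Ndufab1 were 0.78 to 0.81 higher.

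Rare isoforms also differed here. In B cells Cox6b2, known from testis, stood at 5.10 to 7.05 CPM in dividing and 1.70 to 2.13 in other cells (1.62, SE 0.21, adjusted p = 5.6e-06), and Cox4i2 at 1.49 to 8.31 and 0 to 0.546. In T cells Cox7a1 stood at 3.60 to 6.22 and 1.27 to 2.09 (1.66, SE 0.22, adjusted p = 5.7e-05).

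The members lower in dividing cells were few. Sdhaf1 was lower by 0.62 in B cells and 0.79 in T cells, Ndufa6 by 0.45 and 0.29, and Cox7a2l by 0.21 and 0.32. Uqcrh (-0.23) and Sdhaf3 (-0.29) were lower in B cells and Sdhaf4 (-0.17) in T cells. Of the mt- genes, mt-Nd5 fell most, by 1.08 in B cells (273 to 381 against 541 to 633) and by 0.60 in T cells (196 to 227 against 331 to 408). In B cells mt-Nd1 differed least at -0.18, and in T cells it was 0.03 with TMM and -0.16 with library totals.

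The other genes of the pathway were read at 4 °C as lists, to be set against 16.1% of all genes called in macrophages (8.25% higher, 7.84% lower), 5.04% in αβT cells and 1.22% in B cells. Of 44 assembly factors of the complexes, 4 of 40 tested, close to the share over all genes, were higher in macrophages and none lower: Ndufaf5 (2.46 and 1.66, then 7.2 and 7.88 CPM, a rise of 1.79), Cox20 (40.6 and 42.1, then 67.3 and 64.4, a rise of 0.63), Cox14 (0.45) and Ndufaf8 (0.45). None of 43 passed in B cells, and of 43 in αβT cells Timmdc1, an assembly factor of complex I, was higher (9.96 and 9.89, then 14.8 and 15.1, a rise of 0.53). Of the mitochondrial ribosomal protein genes, which translate the mt- members, 0 of 77 passed in macrophages, 0 of 78 in B cells and 2 of 78 in αβT cells (Mrps25 and Mrps6, both higher). No gene of mitochondrial DNA copying and transcription passed in these 3 types, of 17, 26 and 26 tested.

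Of the tricarboxylic acid cycle and carrier genes, 2 of 27 were higher in macrophages, the fumarase Fh1 (31.3 and 29.9, then 63.2 and 45.3, a rise of 0.83) and the isocitrate dehydrogenase Idh2 (76.2 and 70.3, then 110 and 101, a rise of 0.49). In αβT cells cytochrome c, Cycs, rose by 0.30 and the pyruvate dehydrogenase kinase Pdk1 fell by 0.54. From the list of ATP synthase inhibitors and proton leak and carnitine carriers, 1 of 3 tested genes passed in each of these types. Slc25a20, the carnitine carrier that brings fatty acids into mitochondria, fell by 0.91 in B cells (20.3 and 16.4, then 10.3 in both) and by 0.68 in αβT cells. Ucp2, a carrier of the inner membrane, fell by 1.47 in macrophages, from 2852 and 2720 to 950 and 1132 CPM (SE 0.10, adjusted p = 1.9e-05).

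Of the genes of hypoxia and energy stress, 3 of 8 tested fell in macrophages, 2 of 10 in αβT cells and 1 of 9 in B cells. Ddit4, an inhibitor of the mTOR pathway that is induced by stress, passed in each of the 8 cell types tested. In macrophages it stood at 359 and 341 CPM at 30 °C and 2.83 and 1.31 at 4 °C, a fall of 7.21 (SE 0.19, adjusted p = 8.6e-08). In αβT cells it stood at 201 and 186, then 67.2 and 77.9 (a fall of 1.48), and in B cells at 46.2 and 45.4, then 13 and 16.5 (a fall of 1.71). Txnip, an inhibitor of glucose uptake, fell by 1.52 in αβT cells and 0.36 in macrophages, and Pfkfb3, an activator of glycolysis, fell by 2.52 in macrophages.

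Of 15 genes known to respond to tissue dissociation, a few passed. In macrophages, where 8.25% of all genes were higher, 3 of 15 were higher at 4 °C, with Atf3 at 119 and 182, then 435 and 437 CPM. In αβT cells, where 2.22% of all genes were higher, 3 of 15 were higher (Fosb, Jund and Junb), and in B cells 0 of 15 passed. In macrophages the cell cycle genes Cdk1 and Stmn1 were lower. The part of handling in the member values was not tested.

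The promoters of the nuclear members were also read. RefSeq (GRCm38.p6) gave a window from 250 bases before to 50 bases after the gene start for 69 of the 85 nuclear members. The motif of nuclear respiratory factor 1 (NRF1), a regulator of respiratory chain genes, was searched on both strands as GCGCA, any base N, then GCGC and was found in 18 of 69, or 26.1%, against 4.78% of all 27025 genes in the table. The 18 were spread over complexes I to V, with only Uqcrc1 in complex III and only Cox6a1 in complex IV. Of members named in dividing cells, the lower Ndufa6, Sdhaf3 and Sdhaf4 had a match, and the lower Sdhaf1, Cox7a2l and Uqcrh had none. The higher Sdhd, Cox6a1, Atp5o and Atp5g3 had a match, and the higher Cox5a, Cox5b, Atp5b, Atp5j, Ndufc2, Sdhb and Ndufab1 had none. Whether a match goes with the change in dividing cells was not tested. For 1 member of each complex, the first match with 10 bases on either side is printed on the strand of the gene, with the motif in capitals. The lines come from chr16:37654540-37654569 (minus), chr13:74350319-74350348 (minus), chr9:108936643-108936672 (plus, a match to the other strand), chr5:115349101-115349130 (minus) and chr11:115420041-115420070 (minus).
Ndufb4 (complex I): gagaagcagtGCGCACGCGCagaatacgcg
Sdha (complex II): cgtttacaggGCGCAGGCGCaccaccactc
Uqcrc1 (complex III): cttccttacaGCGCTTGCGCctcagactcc
Cox6a1 (complex IV): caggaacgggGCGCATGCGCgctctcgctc
Atp5h (complex V): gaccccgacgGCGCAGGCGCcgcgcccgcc

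The other motifs were rarer. The ETS site CCGGAAGT, which the GA-binding protein can use, was found in 5 of 69 members (7.25%) against 4.00% of all genes. The YY1 site AAGATGGC, which is also the start of a longer form that goes on with GGC, was found in 11.6% against 2.88%, and the longer form in 5.80% against 0.699%. The TATA box TATAAA was found in 8.70% against 14.2%. A match shows only that these letters are in the window.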

How the data were processed

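The deposited values were UMI counts per gene and cell, 1 matrix per library, which the authors made with Cell Ranger (3.0.0 in the matrix headers, 3.1.0 in the submitters' processing notes) on mm10. Member genes were taken by symbol and cells were typed by marker genes. Members, lists and tests were chosen with earlier results of these data known. Cells with 200 to 5000 genes and under 7.5% mt- UMIs were kept, counts were summed per cell type and library (types with at least 20 cells per library), and the sums were tested with edgeR 4.0.16 (quasi-likelihood, TMM, filterByExpr; R 4.3.3), adjusted over all genes by Benjamini-Hochberg at 0.05. Comparisons of types, and of cells over and under the limit, kept the library as a block. Named were all mt- members, up to 8 higher and 8 lower nuclear members past the test by size, the tissue and hypoxia isoforms, Sdh subunits and Atp5g genes at 4 °C, and up to 4 pathway genes a list. Sdhaf2 to Sdhaf4 at 4 °C, and values of a called gene in other cell types, were given after their values were seen. Alternatives were other mt- limits, no upper gene limit, DESeq2 1.42.0, no low-count filter, library totals, left-out gene classes, a replicate block and each library left out. The test was checked on simulated counts.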

Additional observations from a re-analysis of the deposited data

Results flagged for a closer look

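The 4 °C effect differed between cell types for 2 nuclear members, by a test of the difference itself. For Uqcrb it was lower in macrophages than in B cells by 0.61 on the log2 scale (-0.61, SE 0.14, edgeR adjusted p = 0.036) and lower than in αβT cells (-0.51, SE 0.13, adjusted p = 0.017). For Sdhaf1 it was higher in macrophages than in αβT cells (0.90, SE 0.21, adjusted p = 0.0067). Without a 4 °C library the Uqcrb differences had adjusted p of 0.29 and 0.33 against B cells and 0.14 and 0.075 against αβT cells.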

How the results depend on the processing

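The numbers here are members called unless stated, with the main count in parentheses, and the cause of each change was not tested. At 4 °C, macrophages (4) had 1 with DESeq2. B cells (1) had 0 without the upper gene limit, 4 without the low-count filter and 24 among non-dividing cells. αβT cells (8) had 4 without the filter and 4 with library totals. γδT cells (1) had 0 without the upper gene limit and with library totals, 2 with DESeq2 and 6 without the filter. ILC2 (3) had 1 without the mt- limit, at 15%, without the upper gene limit, with DESeq2, without the filter and with library totals. DCs (1) had 2 at 15% and 0 with DESeq2. Dividing B cells (0) had 1 with DESeq2 and 1 without the filter. Dividing T cells (9) had 5 without the mt- limit, 15 without the filter and 4 with library totals. Plasma cells against B cells (54) had 93 with library totals, mostly lower. Macrophages over the mt- limit (30) had 6 with library totals, 19 at 7.5% to 15% and 13 with DESeq2. The interaction of macrophages with B cells (1) had 2 without the filter.

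Leaving out 1 library at a time gave 1 to 3 in macrophages, 0 to 19 in B cells, 1 to 10 in αβT cells, 0 to 12 in γδT cells, 1 to 2 in ILC2, 0 to 1 in DCs, 0 to 12 in dividing B cells, 3 to 21 in dividing T cells and 0 in plasma and stromal cells. The highest counts came without 30 °C replicate 2 in B cells and dividing B cells (19 and 12), without 4 °C replicate 2 in γδT cells (12) and without 4 °C replicate 1 in dividing T cells (21). It gave 79 to 83 for macrophages against B cells, 74 to 80 against αβT cells, 55 to 64 for αβT against B cells (64 without 30 °C replicate 1, of which 30 were higher and 34 lower), 46 to 50 for plasma cells, 77 to 83 and 82 to 85 for dividing B and T cells, and 17 to 23, 62 to 67 and 69 to 70 for macrophages, B cells and αβT cells over the limit. The interactions ranged from 0 to 8 against B cells and 0 to 3 against αβT cells. An arm left with 1 library was assumed to vary like the other.

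With the replicate number as a replicate block, B cells had 2, γδT cells 2, ILC2 1 and dividing B cells 1. The libraries share only a number: deviations of same-numbered libraries correlated at 0.057 in macrophages, 0.304 in B cells and 0.026 in αβT cells.

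The percent change of the mt- share at 4 °C is given with its main value in parentheses. In αβT cells (-8.08) it was -12.3 without the mt- limit and -13.3 without the upper gene limit. In γδT cells (2.37) it was -4.35 and -19.0, and in dividing T cells (-9.34) -14.4 and -16.6. Without the upper limit it was -5.35 in ILC2 (-6.84), and at 15% it was -15.7 in DCs (-12.0). In stromal cells (-2.97) it was 41.1 without the mt- limit and 17.7 at 15%. The direction thus depended on the filter in γδT and stromal cells. The nuclear sum changed by 2.77, -3.33 and -8.04 percent without the upper limit in macrophages, γδT cells and stromal cells. With that limit the changes were 0.693, -10.5 and 4.12 percent.

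Single genes that turned direction, with a call in the main or the alternative setting, are given in log2. They were Ndufa12 in γδT cells (0.054) and mt-Co1 in macrophages against αβT cells (0.15) without the upper gene limit. With library totals they also included mt-Nd6 in αβT against B cells (0.073, or 0.054 without immunoglobulin genes). In plasma against B cells with library totals they were Ndufb9 (-0.080), Ndufs5 (-0.12), Uqcr11 (-0.27), mt-Nd3 (-0.92), mt-Nd4l (-0.98), mt-Nd1 (-1.27), mt-Nd6 (-0.98) and mt-Cytb (-1.21), with mt-Cytb at -0.18 without the upper limit and mt-Co3 at 0.097 without immunoglobulin genes. For mt-Nd1 in dividing T cells they were -0.15 and -0.16. Of settings for single genes other than a left-out library, 2098 kept the call or its absence, 146 lost a call and 47 gained one. The 2098 include turns of direction no larger than the SE in genes called in neither setting. A further 25 were larger turns in such genes. For 4 settings DESeq2 gave no adjusted p, and these were left out.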
